A study of Brassica napus with 48 samples.

Results

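The genes described here are 200 highly expressed genes of developing rapeseed (Brassica napus) seeds whose level differed little between the conditions of a field experiment in the hybrid Lumen. They were selected on measured values, out of 101040 genes, from the 24 libraries labelled Lumen. Expression was taken as log2 of the normalized TPM (transcripts of a gene per fixed number of transcripts, corrected for length) plus 0.5. A gene was kept when the mean of its log2 values differed by less than 0.25 (1.19-fold) in each of 4 comparisons: 14 against 7 days after flowering (DAF), shading against control at 7 DAF, shading against control at 14 DAF, and delayed against optimal sowing. The 200 kept genes with the highest mean TPM in Lumen are called the members below. The differences in Lumen that chose them are given as a description, and their stability was then examined in the 24 libraries labelled Solar, which the rule did not use.

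The experiment was grown in field plots of a split-split-plot design, and seeds of 2 spring hybrids, Lumen and Solar, were sampled at 7 and 14 DAF. Plants were either left as they grew (control) or covered during early seed growth, until 15 DAF, with black nets that took away 75% of the light (shading), and each treatment was present in an optimal and a delayed sowing date. This gave 16 groups of 3 libraries: for each hybrid, control and shading, optimal and delayed, 7 and 14 DAF. The labels name no introduced allele in either hybrid, and all groups grew at the same field station. Each library holds the RNA of seeds ground from several plants of a plot, so fewer cells of a type and less RNA per cell cannot be told apart. Replicates are plots, and the p-values below measure the spread between the libraries of a group. The tests took libraries as independent. They modelled neither the main plots of sowing date and the subplots of shading nor plots sampled at both 7 and 14 DAF. The p-values for time, shading and sowing date are limited to that extent.

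Genes of this kind are the source of reference genes. Products needed in nearly every cell, such as actin of the cytoskeleton, glyceraldehyde 3-phosphate dehydrogenase of glycolysis, ribosomal proteins, ubiquitin and histones, are present at high levels in most tissues, and some of them are used to normalize quantitative PCR on the assumption that their level does not move with the treatment. Young seeds first divide and build endosperm and embryo tissue and then turn to storage products. Rapeseed carries an A and a C subgenome, and most genes therefore have a near copy in the other, with which reads can be shared. The levels of single copies are uncertain to that extent.

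The members had mean levels in Lumen between 180.08 and 2999.25 TPM, with a median of 236.58 TPM. Of the 200, 110 had a mean under 250 TPM, 21 a mean over 500 TPM and 6 a mean over 1000 TPM. Together they took 5.30% to 7.62% of the transcripts of a Lumen library and 5.37% to 7.29% of those of a library labelled Solar. A further 457 genes were at or above the level of the lowest member but beyond at least 1 of the limits, most often that on time (363 genes), followed by sowing date (288), shading at 7 DAF (253) and shading at 14 DAF (244). They are used below as the comparison at like level. Over all levels, 17023 (31.6%) of the 53810 genes tested were within the 4 limits in Lumen. The members just inside the list were BnaCnng46660D (181.67 TPM), BnaA05g36890D (180.38 TPM) and BnaA09g46370D (180.08 TPM). Those just outside were BnaC04g16450D (179.96 TPM), BnaC04g25470D (179.08 TPM) and BnaC05g00800D (178.50 TPM). Nearest below a limit of difference were BnaC04g22220D (0.25 for sowing date), BnaC06g26930D and BnaA02g20200D (both -0.25 for shading at 7 DAF), and nearest above it were BnaA08g27100D (-0.25 for shading at 7 DAF), BnaCnng34700D (-0.25 for sowing date) and BnaC07g43630D (0.25 for sowing date), so the limits separate genes that differ by less than 0.01.

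The members were spread over both subgenomes, with 88 on A, 111 on C and 1 on neither, which is 44% and 55.5% against 46.9% and 52.8% of all genes tested. Relative to the genes tested on a chromosome, C06 held the most members (17, or 7.56 per 1000 genes tested) and A03 the fewest (5, or 1.43 per 1000). None of the 200 had values identical to those of another gene in all libraries. A functional description or an Arabidopsis ortholog was at hand for 14 members, listed by the study's annotated gene tables, and the other members are named by their identifier alone.

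The highest member was BnaAnng33440D, which ranged over the 24 Lumen libraries from 1989 to 4140 TPM with a median of 2821 TPM. In the libraries labelled Solar its level was 2335 to 4916 TPM with a median of 3678.5 TPM. BnaC01g34360D followed, with a median of 1643 TPM (1088 to 2050) in Lumen and 1644.5 TPM (1057 to 2338) in Solar. The Lumen and Solar ranges of both genes overlapped over most of their length. The third, BnaC03g36390D, had a median of 1497 TPM (999 to 2082) in Lumen and 1717 TPM (1273 to 2422) in Solar. The fourth, BnaC04g04640D, had 1102 TPM (966 to 1335) and 1221 TPM (959 to 1487), and both of these genes also stayed within the limits in Solar. Of the next 6, BnaA07g01900D, BnaA09g19810D, BnaC09g29270D, BnaA04g26560D, BnaC03g44340D and BnaA07g32230D, with Lumen means between 701 and 1049 TPM, BnaC09g29270D stood apart by its spread. It ranged from 376 to 2371 TPM in Lumen and from 312 to 1925 TPM in Solar, and its standard deviation (SD) within groups, 0.79 on the log2 scale, was the largest of the 200: its means passed the limits although its single libraries did not repeat each other.

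A limit on 4 differences of means does not require that a gene be steady in every group or library. The SD within Lumen groups had a median of 0.16 over the members (0.08 to 0.79), against 0.31 over the other genes at their level and 0.30 over all genes tested. The distance between the highest and the lowest of the 8 Lumen group means had a median of 0.44 over the members, against 1.45 over the others and 0.81 over all genes. It was under 0.5 for 145 members and reached 1.66 for the widest. From the lowest to the highest single Lumen library, a member changed by a median of 1.75-fold (1.30-fold to 7.83-fold), and 151 members stayed under 2-fold.

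The steadiest gene across the Lumen groups was BnaC09g36740D, whose 24 libraries lay between 413 and 582 TPM with a median of 471 TPM and whose group means spanned 0.20. BnaA06g24300D (180 to 240 TPM), BnaC03g25770D (151 to 219 TPM), BnaCnng12070D (265 to 412 TPM) and BnaA04g26560D (671 to 960 TPM) had group means within 0.20 to 0.22 of each other. The smallest scatter between replicate plots belonged to BnaC09g46850D (SD 0.08), BnaC08g06360D (0.08), BnaAnng33460D (0.09), BnaC08g08770D (0.09) and BnaCnng48720D (0.09). At the other end, BnaC09g29670D ranged from 78 to 428 TPM in Lumen with group means 1.66 apart, and BnaC03g43790D, BnaA05g32390D, BnaC04g31650D and BnaC06g37610D had group means 0.88 to 0.91 apart. For these genes opposite differences between groups cancelled in the means the rule looked at, as described below for time and sowing date. Next to BnaC09g29270D, the scatter within groups was largest for BnaCnng24330D (SD 0.62, 46 to 360 TPM), BnaC09g29670D (0.47), BnaC06g37610D (0.36) and BnaA07g32230D (0.36).

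Libraries differed in how near the members lay to their Lumen mean. In 23 of the 24 Lumen libraries, 136 to 183 members were within 0.25 of it, and in the replicate 1 library of Lumen control, delayed, 7 DAF only 65 were, with a median deviation of 0.32 and the highest sum of the members, 80279 TPM. Among the libraries labelled Solar the number was 79 to 142. The label Solar did not hold in all libraries. From 47 genes present only in Solar and 51 present only in Lumen, defined on the delayed 14 DAF libraries, the Solar share of the genotype-specific transcripts was 0% to 1.69% in the Lumen libraries but ranged widely among those labelled Solar. In the optimal date, its group means were 30.1% (control) and 13.5% (shading) at 7 DAF, and 42.3% and 89.2% at 14 DAF. In the delayed date they were 85.1% and 72.8% at 7 DAF, and 100% at 14 DAF by definition. The replicate 2 libraries of Solar control and Solar shading, optimal, 7 DAF had shares of 1.35% and 1.34% and so went against their label, and over the members they were closer to each other (median difference 0.05) than any of the 48 pairs of libraries of 1 group (lowest 0.07, median 0.14). Time, shading and sowing date in Solar thus differ also in genotype composition. The counts of members for time, shading, sowing date and the limits are given also without these 2 libraries, and that for time also within the delayed date. Other libraries of low share, such as the 4 between 10.9% and 20.4%, stayed in, and single genes, gene groups and the interaction in Solar are given with all libraries only.

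**Figure D1:**
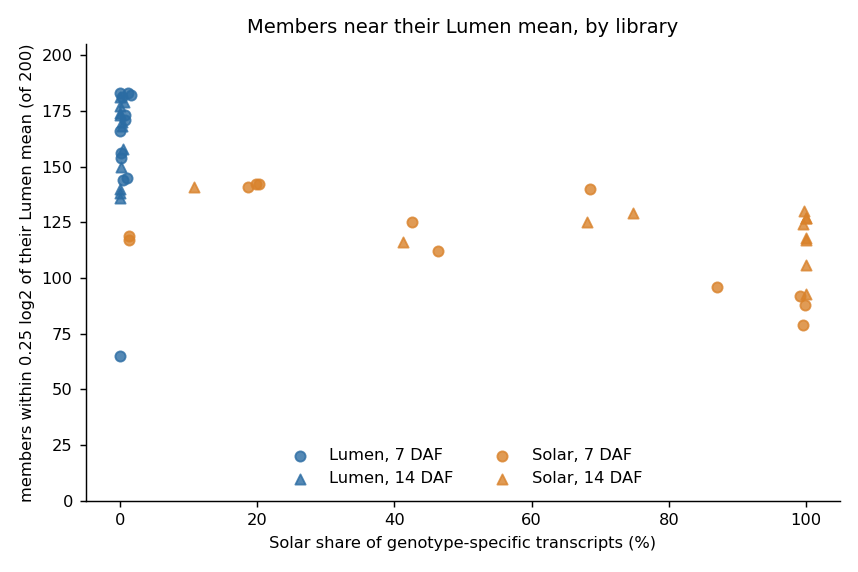
Number of the 200 members within 0.25 log2 of their Lumen mean (y axis) against the Solar share of the genotype-specific transcripts in percent (x axis), 1 point per library, blue for Lumen, orange for Solar, circles for 7 DAF and triangles for 14 DAF. The Lumen libraries sit between 136 and 183 except 1 at 65, and the libraries labelled Solar, between 79 and 142, spread over shares from 1.34% to 100%.

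In the libraries labelled Solar, 71 of the 200 members (35.5%) stayed within all 4 limits, against 24.2% of all genes tested and 29 (6.35%) of the 457 other genes at their level. A further 84 members kept 3 of the limits, 29 kept 2, 10 kept 1 and 6 kept none. With limits of 0.5 the number was 161 (80.5%, against 57.4% of all genes and 31.3% of the others). Without the 2 libraries that went against their label, 68 members were within all limits. The largest of a member's 4 differences had a median of 0.33, against 0.68 for the others and 0.43 for all genes. The 457 others are by construction genes beyond a limit in Lumen, and several libraries labelled Solar held mostly Lumen transcripts, so these shares are a description.

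The limit that most members lost was that on time. Shading at 14 DAF stayed within it for 177 members (88.5%, against 57.7% of all genes), shading at 7 DAF for 173 (86.5%, against 63.8%) and sowing date for 159 (79.5%, against 59.5%). Time stayed within it for 95 members (47.5%), close to the 50.1% of all genes. Of the 105 members past the time limit, 91 were lower at 14 DAF and 14 higher. By subgenome, 25 of 88 members on A and 46 of 111 on C stayed within the 4 limits, and by level, 14 of the 50 highest members and 20 of the 50 lowest.

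**Figure D2:**
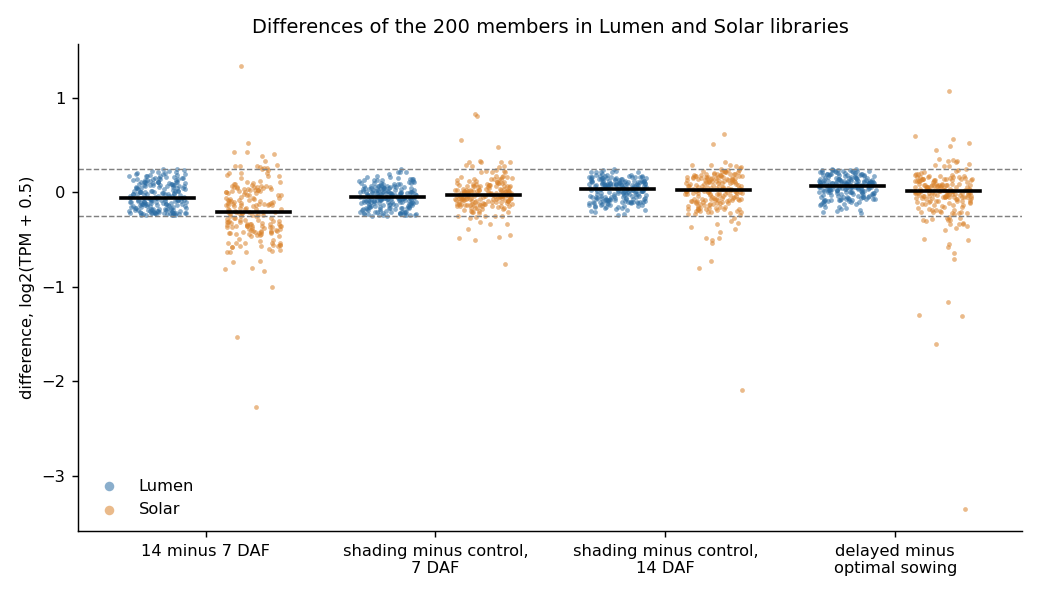
The 4 differences of each of the 200 members on the log2(TPM + 0.5) scale, in Lumen (blue) and Solar (orange), 1 point per gene, with the median as a black bar and the limits of 0.25 as dashed lines. The Lumen points lie inside the limits by choice, and in Solar the time differences shift downwards to a median of -0.21 with single genes below -1.

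The steadiest members in Solar differed hardly at all. BnaC04g25490D lay between 205 and 249 TPM in Solar with a median of 218 TPM, and its largest difference was 0.03. It lay between 183 and 285 TPM in Lumen. BnaC09g36740D, the steadiest gene in Lumen, had a median of 478.5 TPM (436 to 575) in Solar and a largest difference of 0.07. This gene thus stayed between 413 and 582 TPM in all 48 libraries. BnaA02g05320D (374 to 507 TPM in Solar, 372 to 575 TPM in Lumen) and BnaA10g22340D, described with the annotated genes, also had a largest difference of 0.07. For BnaC04g31650D it was 0.04 (202 to 422 TPM in Solar), although its Lumen group means were 0.89 apart. Its time differences in Solar, 0.25 in the optimal and -0.24 in the delayed date, had opposite signs, and its Solar group means ran from 238 to 308 TPM.

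BnaA01g33650D moved most in Solar. In Lumen it lay between 163 and 364 TPM with a median of 234 TPM. In the libraries labelled Solar it lay between 2 and 303 TPM with a median of 40 TPM, and all 6 delayed 14 DAF libraries held 2 to 5 TPM. Its level was high in libraries of low Solar share and low in those of high share: it was at 288 and 303 TPM in the 2 libraries with a share of 1.35% and 1.34%, at 192 TPM in the delayed 7 DAF library with a share of 19.9%, and at 2 TPM in the delayed 7 DAF library with a share of 99.8%. BnaC04g16820D (22 to 252 TPM in Solar, 165 to 263 TPM in Lumen), BnaA04g19950D (16 to 319 TPM and 116 to 351 TPM) and BnaA06g23960D (42 to 340 TPM and 243 to 366 TPM) also had a wide range in Solar, with largest differences of 1.60, 1.53 and 1.31. For BnaC09g29670D, the fourth of those that moved most, it was 1.33.

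**Figure D3:**
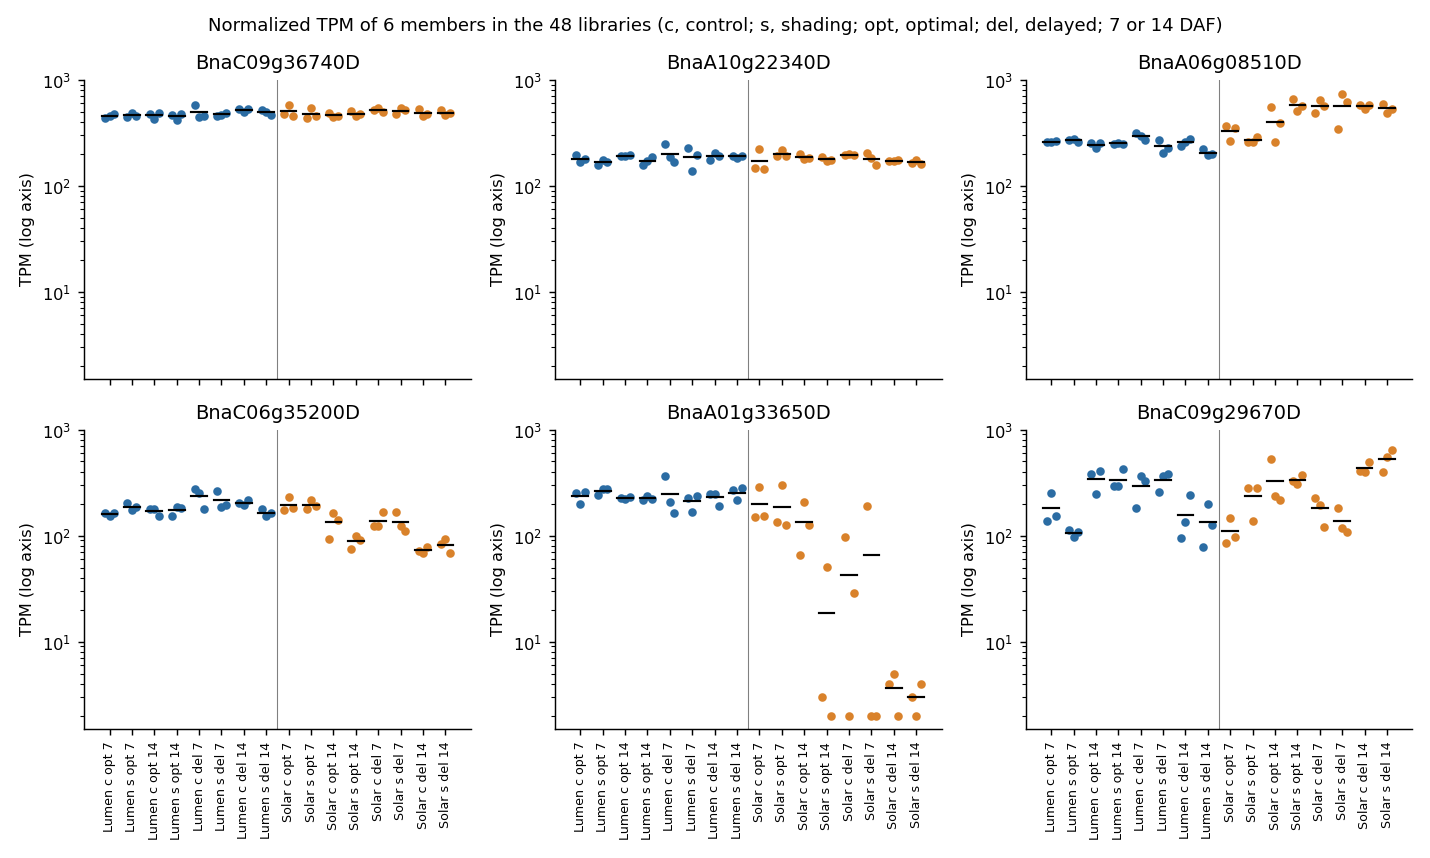
Normalized TPM (log axis) of 6 members in the 16 groups, 3 points per group for the replicate libraries and a bar for their mean, Lumen in blue and Solar in orange. BnaC09g36740D and BnaA10g22340D vary little between the groups. BnaA06g08510D is higher and BnaC06g35200D and BnaA01g33650D lower in the Solar groups of high Solar share, and BnaC09g29670D reverses its time course between the sowing dates in Lumen.

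The first test asked whether the members changed between 7 and 14 DAF in Solar, libraries the rule had not seen. With limma over all genes tested and Benjamini-Hochberg adjusted p under 0.01, 96 of the 200 members (48%) were called, against 22.9% of all genes tested and 271 of 455 (59.6%) of the other genes at their level. The members changed mostly in 1 direction, 84 lower and 12 higher at 14 DAF, with a median difference of -0.21 over the 200, against 0.01 over all genes and 0.12 over the others. The changes were small: the called differences had a median size of 0.40, 2 were over 1 in size and 8 were under the limit of 0.25. The SD within Solar groups had a median of 0.16 over the members, 0.33 over the others and 0.32 over all genes. A difference of like size is therefore called, or leaves groups without overlap, more readily in the members. Without the 2 libraries that went against their label 95 members were called (21.5% of all genes), and within the delayed date alone 56 (11.4% of all genes). The mean Solar share rose from 7 to 14 DAF in both treatments of both dates, as given above, and its part in these changes was not tested. Of the 200 genes chosen after each library was rescaled to 1 sum, 77 were called, 18 of them higher, with a median of -0.10. The test was the same, so the share of all genes stayed at 22.9%.

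Among the members that fell, BnaA09g23960D was at 224.5 TPM (174 to 265, n = 12) at 7 DAF and 155 TPM (111 to 179, n = 12) at 14 DAF. Its difference was -0.58 (standard error, SE, 0.05, adjusted p = 3.67e-07). The ranges overlapped by a few TPM. BnaC09g37460D fell from a median of 255 TPM (235 to 284) to 189.5 TPM (166 to 222), by 0.44 on the log2 scale (SE 0.04, adjusted p = 1.15e-06). BnaA05g23590D fell from 292.5 TPM (227 to 350) to 206 TPM (156 to 222), by 0.56 (SE 0.06, adjusted p = 2e-06), and BnaA09g38330D from 336.5 TPM (268 to 377) to 227.5 TPM (202 to 262), by 0.52 (SE 0.06, adjusted p = 2.02e-06). In these 3 genes no 14 DAF library reached the lowest of the 7 DAF libraries. BnaC06g42830D, at 564.5 TPM (411 to 639) and then 366 TPM (319 to 413), overlapped by 2 TPM, with a difference of -0.56 (SE 0.06, adjusted p = 1.29e-06). In Lumen the time differences of these 5 genes were -0.06 to -0.22, inside the limit by choice. Of the 200 members, 14 (7%) had no overlap between the 7 and 14 DAF libraries of Solar, against 0.56% of all genes tested.

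Members higher at 14 DAF were fewer. BnaC09g29670D rose from a median of 142.5 TPM (86 to 284, n = 12) to 399.5 TPM (215 to 641, n = 12), by 1.33 on the log2 scale (SE 0.17, adjusted p = 1.42e-05). BnaCnng26110D rose from 411.5 TPM (290 to 487) to 535 TPM (446 to 597), by 0.42 (SE 0.07, adjusted p = 0.000143). BnaC03g07800D, whose Arabidopsis ortholog is AT5G16470, rose from 164.5 TPM (133 to 241) to 253 TPM (166 to 318), by 0.52 (SE 0.10, adjusted p = 0.000684). In each of these the groups overlapped. BnaA07g01900D, the fifth highest gene of the list, rose from 1069.5 TPM (860 to 1276) to 1338 TPM (968 to 1770), by 0.40 (SE 0.08, adjusted p = 0.00074). BnaC06g03040D rose from 234 TPM (205 to 298) to 300.5 TPM (233 to 326), by 0.28 (SE 0.06, adjusted p = 0.00123).

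Shading left no member called in Solar. At 7 DAF, limma called 0 of the 200 members and 0% of all genes tested, with 18 members and 7823 genes of all at an unadjusted p under 0.05. At 14 DAF it called 0 members, against 1.3% of all genes and 17 of 455 (3.74%) of the other genes at their level, with 37 members and 11622 genes of all at an unadjusted p under 0.05. The median difference of the members was -0.03 at 7 DAF and 0.02 at 14 DAF, and the SE of a member's difference had a median of 0.10. Some members differed widely between treatments without passing the test, with replicate libraries far apart: BnaA01g33650D was at 35 TPM (2 to 208, n = 6) in control and 3 TPM (2 to 51, n = 6) in shading at 14 DAF, a difference of -2.09 (SE 1.01, adjusted p = 0.238 by limma). The Solar share of these groups was 42.3% in control and 89.2% in shading in the optimal date, and its part in the difference was not tested. These counts depended on single libraries. Without the replicate 2 library of Solar shading, optimal, 7 DAF, 8 members were called at 7 DAF, against 2.71% of all genes, and 8 also without both libraries that went against their label, against 2.27%. Without the replicate 1 library of Solar control, optimal, 14 DAF, 3 were called at 14 DAF, against 2.9% of all genes. Without both libraries that went against their label, limma called 0 at 14 DAF, against 1.88% of all genes.

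Between delayed and optimal sowing in Solar, 22 of the 200 members (11%) were called, 8 higher and 14 lower in the delayed date, against 8.46% of all genes tested and 66 of 455 (14.5%) of the other genes at their level. The share of the members was near that of all genes. At adjusted p under 0.05, 43 of the 200 were called, against 20.8% of all genes. Without the 2 libraries that went against their label 16 were called (5.54% of all genes), and 31 without the replicate 1 library of Solar shading, delayed, 7 DAF (12.8% of all genes). After each library was rescaled to 1 sum, 31 were called with 5 of them higher, and after quantile normalization 33 with 5 higher. The share of all genes under these scalings is not given here, so these counts are a description.

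In the delayed date BnaC08g32220D was at 278.5 TPM (233 to 376, n = 12) against 182.5 TPM (141 to 260, n = 12) in the optimal date, a difference of 0.59 (SE 0.08, adjusted p = 0.000287). BnaA09g39870D was at a mean of 244 ± 33.2 TPM (SD, n = 12) against 178 ± 20.6 TPM (SD, n = 12), a difference of 0.45 (SE 0.07, adjusted p = 0.000728). BnaAnng39120D, BnaC06g18530D and BnaA01g24730D were higher by 0.28 to 0.49. Lower in the delayed date was BnaA10g02560D, at 76 TPM (57 to 157) against 140 TPM (63 to 211), with a difference of -0.71 (SE 0.11, adjusted p = 0.00086). BnaA06g23960D, at 69.5 TPM (42 to 219) against 184.5 TPM (62 to 340), had a difference of -1.31 (SE 0.24, adjusted p = 0.00173), and BnaC04g16820D, at 33 TPM (22 to 252) against 131 TPM (30 to 224), one of -1.60 (SE 0.30, adjusted p = 0.00173). BnaA09g23960D and BnaA06g35460D were lower by 0.28 and 0.34. The optimal and delayed libraries overlapped in all 200 members, as in all genes tested (0% without overlap). The Solar share differed between the dates as given above, and its part in these differences was not tested.

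The next comparison set Solar against Lumen in the delayed date at 14 DAF, the groups on which the Solar share was defined, over control and shading. Limma called 62 of the 200 members (31%), against 25.5% of all genes tested and 146 of 455 (32.1%) of the other genes at their level. Of these, 52 were lower and 10 higher in Solar. The Lumen libraries compared here were among those in which a high level had been asked for, so a member's Lumen value was not independent of its choice, and the count, its p-values and the split by direction are a description. The median difference was -0.12 over the members and -0.01 over the other genes at their level, which also had to be high in Lumen. The split was 17 higher of 60 called after rescaling and 12 higher of 51 after quantile normalization, with shares of all genes not given here. The called differences had a median size of 0.64, 15 were over 1 in size, and in 55 members (27.5%) the 6 Lumen and the 6 Solar libraries did not overlap, against 12.4% of all genes tested.

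**Figure D4:**
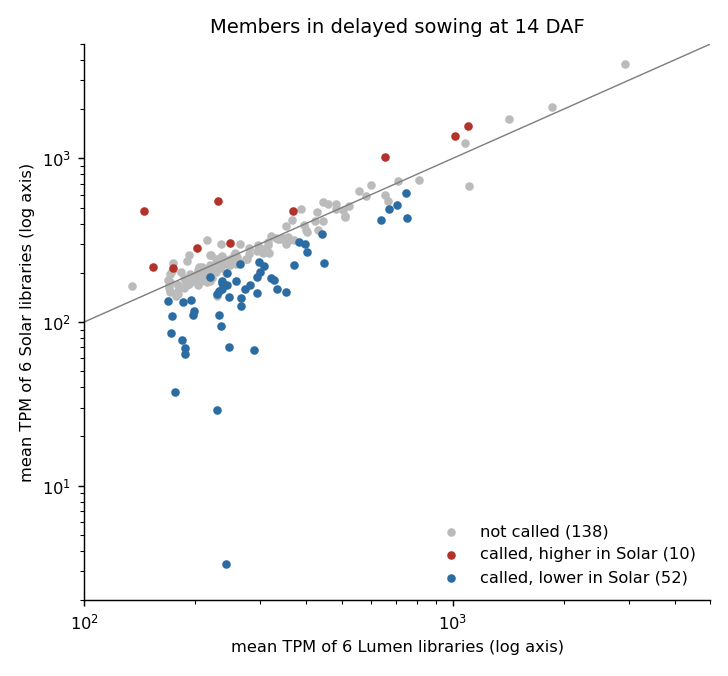
Mean TPM of each of the 200 members in the 6 Lumen (x axis) and the 6 Solar libraries (y axis) of the delayed date at 14 DAF, both on log axes, with the line of equal levels. Red points are the 10 members called higher in Solar, blue points the 52 called lower and grey points the 138 not called, and most of the large differences lie below the line.

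The gene called with the smallest p among those higher in Solar was BnaA06g08510D, a cytosolic glyceraldehyde 3-phosphate dehydrogenase of glycolysis (ortholog AT1G13440, GAPC2), at 229.5 TPM (196 to 275, n = 6) in Lumen and 552 TPM (486 to 595, n = 6) in Solar. Its difference was 1.25 (SE 0.14, adjusted p = 1.03e-08 by limma). BnaC09g29670D was at 130 TPM (78 to 241) and 447 TPM (398 to 641), a difference of 1.80 (SE 0.26, adjusted p = 1.08e-06 by limma). BnaA09g19810D was at 1091.5 TPM (1045 to 1167) and 1545.5 TPM (1433 to 1712), a difference of 0.51 (SE 0.09, adjusted p = 2e-05 by limma). In all of these every Solar library was above every Lumen library. BnaC04g22220D and BnaA07g01900D were higher by 0.49 and 0.43, also without overlap.

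Of the members lower in Solar, BnaA10g02560D had the smallest p. It was at 187 TPM (170 to 206, n = 6) in Lumen and 64 TPM (57 to 72, n = 6) in Solar, a difference of -1.55 (SE 0.13, adjusted p = 1.73e-10 by limma). BnaC06g35200D, a ribosomal protein L35A of the large subunit (ortholog AT1G74270), was at 185.5 TPM (154 to 216) and 75 TPM (69 to 92), a difference of -1.25 (SE 0.13, adjusted p = 2.75e-09 by limma). The neighbouring identifiers BnaA01g33650D and BnaA01g33660D were both lower: the second was at 233 TPM (223 to 258) and 92.5 TPM (87 to 106), with a difference of -1.32 (SE 0.14, adjusted p = 4.16e-09 by limma). The first was at 249 TPM (192 to 278) and 3.5 TPM (2 to 5), a difference of -6.04 (SE 0.74, adjusted p = 8.16e-08 by limma). BnaC04g16820D was at 251.5 TPM (168 to 259) and 29 TPM (22 to 37), and BnaA09g43600D at means of 232 ± 19.6 TPM and 111 ± 7.49 TPM (SD, n = 6). None of these 6 overlapped between the hybrids. The values are rounded to whole TPM, so the fold of BnaA01g33650D rests on levels near the last digit.

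Across the members, the difference between the hybrids could be set beside the time difference in the optimal date, which uses other libraries. In Solar shading, Pearson's r over the 200 genes was 0.858, 0.785 without BnaA01g33650D, and Spearman's rho was 0.607. In Solar control, r was 0.277 and rho 0.267. In Lumen they were 0.152 and 0.13 in shading and 0.044 and 0.064 in control. The Solar share changed from 7 to 14 DAF by 75.7 points in Solar shading, by 12.2 points in Solar control and by less than 1 point in Lumen, and its part in these values was not tested. The points are genes of the same libraries and not independent replicates, so these values are a description.

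In Lumen itself the rule left 2 interactions free. Each member's time difference, averaged over the sowing dates, is under 0.25 in size, but the time course may differ between the dates. Limma called 27 of the 200 members (13.5%) for time by sowing date, against 9.01% of all genes tested and 77 of 455 (16.9%) of the other genes at their level. In 14 of them the difference of 14 minus 7 DAF was higher in the delayed date and in 13 lower, with sizes of 0.48 to 2.46. All 27 had opposite signs in the 2 dates, which the limit on the mean fixes for any interaction over 0.5. The Lumen libraries of both interactions had also chosen the members. The median SD within Lumen groups was 0.16 over the members, against 0.30 over all genes tested. Counts of members called in Lumen, their p-values and the split by direction are therefore a description. The split was 10 higher of 25 called after rescaling and 10 of 22 after quantile normalization. The count was 16 without the replicate 3 library of Lumen shading, delayed, 7 DAF and 17 without the replicate 2 library of Lumen control, optimal, 7 DAF or the replicate 1 library of Lumen control, delayed, 14 DAF. Shares of all genes under these scalings and without these libraries are not given here. In Solar, 0 members were called by limma for this interaction, against 0.74% of all genes, with 28 members and 11396 genes of all at an unadjusted p under 0.05. The difference between the hybrids in this interaction was not tested.

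BnaC09g29670D carried the largest interaction. In the optimal date of Lumen it was at 125.5 TPM (97 to 254, n = 6) at 7 DAF and 338.5 TPM (247 to 428, n = 6) at 14 DAF, and in the delayed date at 345.5 TPM (181 to 382, n = 6) and then 130 TPM (78 to 241, n = 6). The time differences were 1.29 and -1.17, and the interaction -2.46 (SE 0.37, adjusted p = 0.000358 by limma). In Solar the gene was higher at 14 DAF in both dates, by 1.03 and 1.63. BnaC03g43790D went from 211.5 TPM (185 to 269) to 311.5 TPM (276 to 358) in the optimal date and from 348.5 TPM (336 to 421) to 262.5 TPM (200 to 312) in the delayed date, an interaction of -1.06 (SE 0.16, adjusted p = 0.000393 by limma). In neither date did its 7 and 14 DAF libraries overlap.

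Of the others, BnaC05g05630D was at 421 TPM (391 to 452) and 506 TPM (402 to 558) at 7 and 14 DAF of the optimal date, and at 567.5 TPM (455 to 613) and 378 TPM (317 to 404) in the delayed date, without overlap in the latter. BnaC08g46780D had the same order, at 221 TPM (193 to 258) and 243 TPM (226 to 291) against 278.5 TPM (224 to 295) and 177 TPM (146 to 213). BnaCnng19320D had time differences of 0.23 and -0.36. In the opposite direction, BnaC08g08770D was at 571 TPM (561 to 624) and 556 TPM (510 to 590) in the optimal date and at 555.5 TPM (524 to 617) and 735.5 TPM (697 to 811) in the delayed date. In that gene only the delayed 14 DAF libraries stood above the rest. BnaC06g08900D was at 265 TPM (235 to 288) and 178.5 TPM (167 to 211) in the optimal date, without overlap, and was at 189 TPM (163 to 272) and 232.5 TPM (208 to 262) in the delayed date. BnaA05g32390D, BnaA06g35460D and BnaC03g77050D had time differences of -0.36, -0.26 and -0.16 in the optimal and 0.58, 0.47 and 0.38 in the delayed date.

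**Figure D5:**
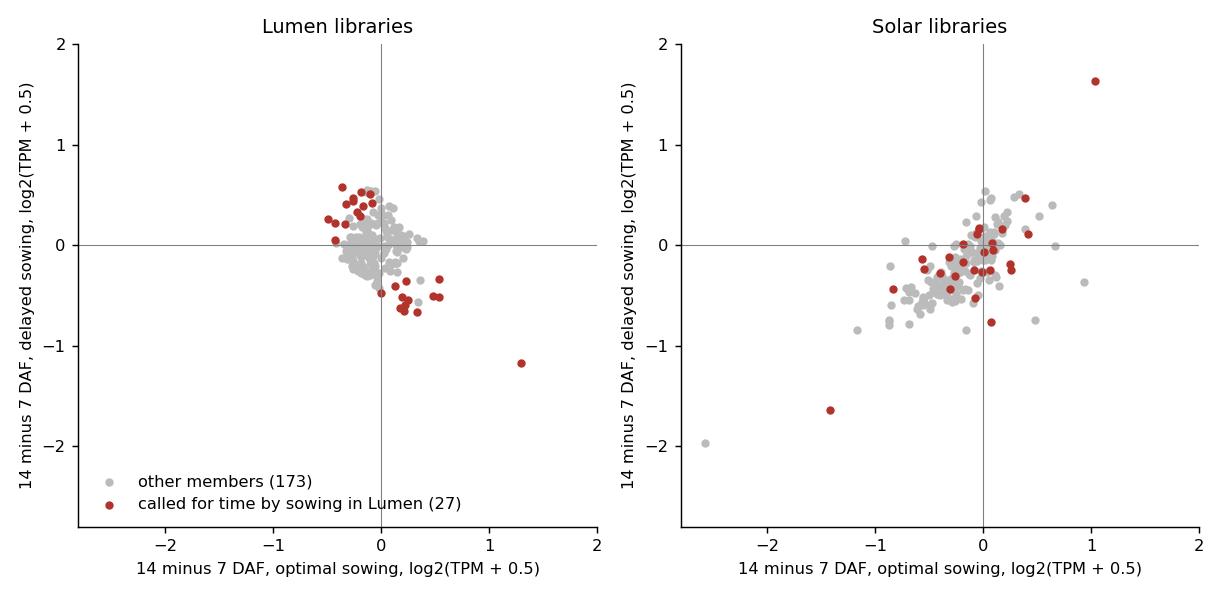
Difference of 14 minus 7 DAF of the 200 members on the log2(TPM + 0.5) scale in the optimal (x axis) and delayed (y axis) date, in Lumen and in Solar. Red points are the 27 members called for time by sowing date in Lumen: there they lie where the signs are opposite, with BnaC09g29670D at 1.29 and -1.17, while in Solar that gene is at 1.03 and 1.63.

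For shading by sowing date in Lumen limma called 0 members, against 0.00187% of all genes tested, with 9 members and 3038 genes of all at an unadjusted p under 0.05. Over the 7 tests (4 in Solar, 1 between the hybrids and 2 interactions in Lumen), 58 members (29%) were called in none and 142 in at least 1, where 52.6% of the 51937 genes tested in all 7 were called in none. Leaving out the comparison of the hybrids, 75 (37.5%) were called in none, against 65.3% of these genes. These shares do not compare the size of differences, because the members scattered less within groups than all genes. The distance between the highest and lowest Solar group means had a median of 0.60 over the members and 0.90 over all genes tested in Solar. Both within the 4 limits in Solar and called in no test were 48 members (24%), against 19% of these genes, among them BnaC09g36740D, BnaC04g25490D, BnaA02g05320D, BnaA10g22340D, BnaC03g36390D and BnaC04g04640D.

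Among the members with an annotation, the actin had the smallest of the largest differences in Solar, 0.07. BnaA10g22340D is an ortholog of ACT7 (AT5G09810), an actin of growing vegetative tissue in Arabidopsis and a common reference gene. It lay between 138 and 250 TPM in Lumen with a median of 186.5 TPM, and between 144 and 223 TPM in Solar with a median of 180.5 TPM. Its differences in Solar were -0.07 for time (adjusted p = 0.395 by limma), 0.07 and -0.06 for shading at 7 and 14 DAF (adjusted p = 0.803 and 0.74) and -0.04 for sowing date (adjusted p = 0.705), and that between the hybrids -0.17 (SE 0.10, adjusted p = 0.194). Although that difference was not called, the Lumen and Solar libraries compared for it did not overlap, with Solar lower. The SKP1-like gene BnaA07g21520D (ortholog AT1G75950), a subunit of ubiquitin ligases that hand proteins to the proteasome, was the other annotated member that no test called and that kept all 4 limits. It lay between 207 and 295 TPM in Lumen and between 192 and 298 TPM in Solar. Its group means spanned 0.22 in Lumen and 0.30 in Solar, against 0.25 and 0.27 for the actin.

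The glyceraldehyde 3-phosphate dehydrogenase, also a common reference gene, was not steady in Solar. BnaA06g08510D lay between 196 and 316 TPM in Lumen with a median of 256.5 TPM, and between 257 and 736 TPM in Solar with a median of 519 TPM. Its sowing date difference in Solar was 0.56 (SE 0.13, adjusted p = 0.00507 by limma). Its level was low in the libraries of low Solar share: 262 and 257 TPM in those with 1.35% and 1.34%, and 260 TPM in that with 10.9%. In libraries with a share over 99% it was 486 to 736 TPM.

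All 4 ribosomal proteins, parts of the machine that makes protein, fell with time in Solar. BnaA05g06920D (L36e) lay between 341 and 579 TPM in Lumen and between 190 and 536 TPM in Solar and fell by 0.62 (SE 0.10, adjusted p = 0.000128 by limma). BnaC04g16650D, of the L12 family and ortholog of AT2G27720, an acidic stalk protein, lay between 290 and 503 TPM in Lumen and between 254 and 528 TPM in Solar and fell by 0.46 (SE 0.06, adjusted p = 9.56e-06 by limma). The ranges of both genes in Solar reached lower than those in Lumen. BnaA01g32660D (L29e), at 215 to 361 TPM in Lumen and 213 to 470 TPM in Solar, fell by 0.37 (SE 0.08, adjusted p = 0.00231 by limma). It was also called for time by sowing date in Lumen (0.48, SE 0.11, adjusted p = 0.0058 by limma). BnaC06g35200D (L35A), at 153 to 273 TPM and 69 to 231 TPM, fell by 0.83 (SE 0.10, adjusted p = 6.34e-06 by limma). Between the hybrids, L36e, the L12 family gene and L35A were lower in Solar by 0.74, 0.32 and 1.25, and L29e differed by 0.00 (SE 0.10). In Lumen the time differences of L36e, the L12 family gene, L29e and L35A were -0.22, -0.22, -0.19 and -0.14, inside the limit by choice. The Solar share rose from 7 to 14 DAF in the libraries labelled Solar, and its part in the falls was not tested.

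Of the 2 histones, which package DNA, BnaC01g00910D (histone H3, ortholog AT4G40030) lay between 358 and 769 TPM in Lumen and between 374 and 720 TPM in Solar. It kept all 4 limits in Solar and was lower there than in Lumen by 0.61 (SE 0.14, adjusted p = 0.000877 by limma). BnaC04g39940D (histone H2B) lay between 136 and 288 TPM in Lumen and between 209 and 623 TPM in Solar, and was called for time by sowing date in Lumen (0.73, SE 0.17, adjusted p = 0.00632 by limma). The transporters were an aquaporin and a mitochondrial carrier. BnaA05g05230D, a plasma membrane aquaporin (ortholog AT2G45960) that lets water through the membrane, lay between 519 and 852 TPM in Lumen and between 413 and 815 TPM in Solar, fell with time by 0.36 (SE 0.09, adjusted p = 0.0033 by limma) and was lower in Solar by 0.45 (SE 0.11, adjusted p = 0.00199 by limma). BnaA10g19870D, an ADP/ATP carrier (ortholog AT5G13490) that exports ATP from mitochondria, lay between 163 and 288 TPM in Lumen and between 35 and 234 TPM in Solar, with a difference between the hybrids of -1.50 (SE 0.24, adjusted p = 7.12e-06 by limma). It was also called for time by sowing date in Lumen (-0.53, SE 0.12, adjusted p = 0.00466 by limma). The cystatin BnaA10g20530D, a member of a family that inhibits cysteine proteases, lay between 237 and 411 TPM in Lumen and 240 and 507 TPM in Solar and fell with time by 0.30 (SE 0.08, adjusted p = 0.00745 by limma). BnaA10g26410D, a precursor of phytosulfokine, a peptide signal of cell growth, lay between 207 and 563 TPM in Lumen and 238 and 543 TPM in Solar and rose by 0.38 (SE 0.09, adjusted p = 0.00237 by limma).

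Other reference genes in use for plants were looked up by their Arabidopsis ortholog, and 8 were found among the annotated genes, 2 of them members. BnaC09g09060D, an ortholog of the cyclophilin ROC3, was at 363 to 599 TPM in Lumen and missed the list with a time difference of -0.26. In Solar (405 to 950 TPM) it fell with time by 0.40 (SE 0.08, adjusted p = 0.000734 by limma). The tubulin BnaA10g20420D (TUB6), at 35 to 69 TPM in Lumen, rose in Solar by 0.65 (SE 0.11, adjusted p = 0.000171 by limma). BnaA10g23070D (YLS8), at 15 to 31 TPM in Lumen, missed the limit with a sowing date difference of 0.43. The other copies were low in Lumen: BnaC03g03940D (ACT7) was at 1 to 2 TPM in Lumen and 1 to 33 TPM in Solar, BnaA03g28480D (GAPC2) at 3 to 10 TPM and 5 to 17 TPM, and BnaC03g03450D (YLS8) was listed at 0 in all Lumen libraries and at 0 to 42 TPM in Solar. Reads of the member copies of ACT7 and GAPC2 could be shared with them.

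Of the functional groups looked up in the study's annotated tables, which hold 5779 genes, the share within the Lumen limits was 42.3% for ribosomal proteins (71 of 168), 58.6% for translation factors (17 of 29), 50% for the cytoskeleton (7 of 14), 60% for ubiquitin and proteasome (36 of 60), 45.2% for chaperones (28 of 62), 51.3% for RNA-binding proteins (40 of 78) and 53.8% for small GTPases and 14-3-3 proteins (14 of 26), against 31.6% of all genes tested. It was 33.3% for central metabolism (12 of 36), 42.4% for ATP and water transport (14 of 33), 36.2% for stress and late embryogenesis proteins (17 of 47) and 42.9% for the classic reference genes (3 of 7). It was lowest for histones (5 of 35, 14.3%), photosynthesis (1 of 10, 10%) and seed storage and oil (0 of 11). These are counts of genes that the study listed, not of all genes of a function. The lists include genes that the study found regulated in these same libraries. Of the 3 classic reference genes within the limits, BnaC03g03940D was at 1 to 2 TPM in Lumen. At that level rounding to whole TPM leaves little room for a difference. Whether within the limits or not, 8 ribosomal proteins (4 of them members) and 12 histones (2 members) reached the level of the lowest member, as did 3 genes each of central metabolism, transport, stress and late embryogenesis and the classic reference genes, 2 chaperones and 1 gene each of the cytoskeleton and of ubiquitin and proteasome. None did among translation factors, RNA-binding proteins, GTPases and 14-3-3 proteins, photosynthesis or seed storage and oil.

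In Solar, 58 of 170 ribosomal proteins were called lower and 5 higher at 14 DAF (median -0.25) and 21 of 35 histones lower and 0 higher (median -0.61). Central metabolism had 5 higher and 3 lower of 36, chaperones 4 and 11 of 62, ubiquitin and proteasome 8 and 6 of 58, RNA-binding proteins 15 and 12 of 78, and translation factors 2 and 4 of 29. For the cytoskeleton these were 3 and 1 of 14, for transport 2 and 8 of 33, for GTPases and 14-3-3 proteins 3 and 7 of 26, for stress and late embryogenesis proteins 7 and 4 of 48, and for the classic reference genes 2 and 1 of 8. Over all genes tested, 22.9% were called for time in either direction. The 4 ribosomal members fell with time, as did most called genes of their group. They belong to that group themselves, and the study's lists include genes it found regulated in these same libraries. The like direction is therefore a description.

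Markers of the tissue were read as a check of the label seed. The oil regulator WRI1 (BnaA07g16350D) averaged 0.67 TPM at 7 DAF and 42.3 TPM at 14 DAF in Lumen, and an oleosin of oil bodies (BnaC04g38160D) 0.42 and 13.8 TPM. A napin, the albumin store of seeds (BnaC03g08840D), was at 0 and 4.25 TPM. These means pool the sowing dates. In Lumen the rise was larger in the delayed date for WRI1, by 3.47 (SE 0.60, adjusted p = 0.00101 by limma). For the oleosin it was larger there by 2.71 (SE 0.66, adjusted p = 0.00845 by limma). The napin had equal time and sowing date differences (both 1.58), with its transcripts in the delayed 14 DAF libraries only. The most abundant of the listed genes of seed storage and oil, BnaC08g03340D, with a lipid transfer and seed storage helical domain, was at 105 and 60.1 TPM, and BnaA04g04450D of the same domain at 9.67 and 9.25 TPM. In Solar, 3 of 10 genes of seed storage and oil were called higher at 14 DAF and 0 lower (median 0.80). Of 10 photosynthesis genes, which mark green embryos and silique wall alike, 1 was called higher and 3 lower (median -0.43). In Lumen a chlorophyll a-b binding protein (BnaA07g16530D) averaged 67.6 and 39.9 TPM. The Rubisco small subunit copy BnaA04g08640D averaged 179 and 169 TPM, BnaA04g08570D 104 and 64 TPM and BnaA07g14420D 12.9 and 6.17 TPM. Other listed genes were near 0, such as BnaC06g20460D (3.5 and 0.25 TPM) and BnaA07g20510D (1 and 0.92 TPM). Transcripts of green tissue were thus present at both times, at levels that differed widely between the listed genes. Their part in the members' values was not tested.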

How the data were processed

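The deposited table holds 1 value per gene and library. Per the labels, the authors quantified transcripts with kallisto 0.46 against the Ensembl Plants rapeseed annotation and normalized with sleuth. The deposited values are gene-level normalized TPM that the authors rounded to whole numbers, and they are treated as a score with no count behind it: the values hold no read number per library, so no counting interval is given, and values near 1 TPM are limited by rounding. Totals were 908993 to 1219379 TPM per library. All columns were assigned to a sample by their label.

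Members were chosen by the rule given above with Python 3.11.15 and pandas 2.3.3. The members, gene groups and tests were chosen with earlier results of these data known. Tests used limma 3.58.1 in R 4.3.3 on log2(TPM + 0.5), with group means, moderation with a trend and Benjamini-Hochberg adjustment over every gene that reached 1 TPM or more in 47% or more of the fitted libraries, called at adjusted p under 0.01. The fit was tested on simulated data. A fold change on this scale understates changes of low genes. Groups were compared as contrasts of the 8 groups of a hybrid, or of all 16 for Solar against Lumen. Members called are counts over the 200, read beside the share of all genes called.

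Genes named are the 10 highest members, those nearest a threshold, the 5 steadiest and least steady by each of 3 measures, up to 5 per direction with the lowest adjusted p in each test, members on a functional list and the classic reference genes. Annotation came from the study's gene tables, and no sequence is shown. Alternatives changed the pseudocount, filter, scaling, trend, threshold, limits, number of members and libraries left out.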

Additional observations from a re-analysis of the deposited data

Results flagged for a closer look

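Within Lumen, the change from 7 to 14 DAF differed between the delayed and the optimal date for 27 members in limma's test of that interaction (adjusted p under 0.01). These are 13.5% of the members, against 9.01% of all genes tested and 16.9% of the other genes at their level. The 10 members named for this change are given here with the difference between the dates on the log2 scale. It was higher in the delayed date by 0.76 for BnaC06g08900D, 0.50 for BnaC08g08770D, 0.94 for BnaA05g32390D, 0.72 for BnaA06g35460D and 0.55 for BnaC03g77050D. For BnaC09g29670D it was -2.46, for BnaC03g43790D -1.06, for BnaC05g05630D -0.81, for BnaC08g46780D -0.80 and for BnaCnng19320D -0.59, all with n = 6 libraries per date and time. Adjusted p ran from 0.000358 to 0.00252. The same interaction was not called by limma in Solar for any of the 200 members, against 0.74% of all genes tested. The difference between the hybrids in it was not tested. The members were chosen in the same Lumen libraries, so the counts and p-values in Lumen are a description.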

How the results depend on the processing

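Of 99 alternatives to the counts of members, leaving out single libraries aside, 80 kept the count within 1.5 times. These 80 include 12 for shading by sowing date, 12 for shading at 7 DAF and 10 for shading at 14 DAF. In those the count was 0 both before and after, so they do not measure how well a count holds. Lists of 100 and 400 members changed the counts with their size: 50 and 197 for time in Solar, 8 and 44 for sowing date, 30 and 119 for Solar against Lumen, 9 and 48 for time by sowing date, and 1 for shading at 14 DAF with 400. The tests were the same, so the shares of all genes stayed at 22.9%, 8.46%, 25.5%, 9.01% and 1.3% in this order. At adjusted p under 0.05, 43 were called for sowing date, 46 for time by sowing date and 5 for shading at 14 DAF, against 20.8%, 21.8% and 6.12% of all genes. Rescaling and quantile normalization each called 1 member for shading at 14 DAF. Within the delayed date, 56 were called for time and 1 for shading at 7 DAF. Control alone gave 33 for Solar against Lumen, and limits of 0.5 in Solar held 161 members. Without both libraries that went against their label, 8 were called for shading at 7 DAF. Apart from list size and threshold, the cause of these changes was not tested. Where no share of all genes stands beside a count here, the count is a description.

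Leaving out 1 library at a time gave 88 to 101 for time, 0 to 8 for shading at 7 DAF, 0 to 3 for shading at 14 DAF, 17 to 31 for sowing date, 53 to 64 for Solar against Lumen, 16 to 36 for time by sowing date, 0 to 0 for shading by sowing date, and 60 to 75 members within the limits without 1 replicate number. With the replicate number as a block, the counts were 91, 0, 0, 23, 61, 28 and 0 in the order of these 7 tests. Shares of all genes in these fits are given above for some of them only, so these counts are a description. Same-numbered libraries of a hybrid had a median r of 0.008 between their deviations from group means (-0.401 to 0.419 over 168 pairs). For the 24 pairs with equal plot labels at 7 and 14 DAF the median was also 0.008. A low correlation over all genes cannot tell whether the numbers stand for shared plots or blocks. Members chosen with limits of 0.2 shared 113 genes with the list, and those chosen after rescaling 132.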
